A study of Bos indicus x Bos taurus with 11 samples.

Results

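The HOX genes of fetal cattle skin fibroblasts are described here: every gene of the count table named HOXA, HOXB, HOXC or HOXD plus a number. The name alone chose them. There are 36 among 27398 rows, 11 in HOXA, 9 in HOXB, 8 in HOXC and 8 in HOXD. Total RNA was sequenced after ribosomal depletion from primary skin fibroblasts of 6 fetuses with large offspring syndrome (LOS; 3 females and 3 males) and 5 control fetuses (CON_B; 2 females and 3 males), with 1 library per fetus. All fetuses were taken on day 105 and were first-generation crosses between Brahman and Angus cattle (Bos taurus indicus and Bos taurus taurus). The LOS fetuses came from assisted reproduction and weighed more than the 97th centile of controls, while the controls came from artificial insemination. So conception method and overgrowth cannot be told apart. The sources used here give neither the body site of the skin nor the number of passages.

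HOX proteins are homeodomain transcription factors that give cells along the body axis and the limbs their regional identity. In mammals the genes lie in 4 clusters, and the paralog number follows the order along a cluster. Low-numbered genes are used from the hindbrain and neck backwards, and high-numbered genes toward the tail and the tips of the limbs. Adult human skin fibroblasts are known to keep a HOX pattern that reflects the body site they came from, also in culture.

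In the authors' coordinates, which the submitters' notes give as build ARS-UCD1.2, the HOXA genes from HOXA13 to HOXA2 lie on chromosome 4 (68842425 to 68941296, plus strand). HOXB spans 37866983 to 37959268 of chromosome 19 (plus strand), HOXC 25977635 to 26093573 of chromosome 5 (minus strand) and HOXD 20724251 to 20820784 of chromosome 2 (minus strand). HOXB13, HOXC12 and HOXD12 are not analysed here.

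Library totals ran from 12084800 to 19297200 estimated reads in LOS and from 14147000 to 19272400 in controls (to 6 digits). HOX genes took 0.0284% to 0.0458% of the counts in LOS libraries and 0.0362% to 0.0486% in control libraries. All 12 fibroblast markers looked at were present in every library, with a summed level of 52668 to 67517 CPM in LOS and 56000 to 65646 CPM in controls. Keratinocyte markers were scarce, with KRT5 and KRT14 at 0 counts in 8 of 11 libraries and a summed level over 6 markers of 2.43 to 24.7 CPM in LOS and 3.60 to 10.8 CPM in controls. Markers of melanocytes and Schwann cells summed to 17.5 to 53.9 CPM in LOS and 8.54 to 188 CPM in controls, highest in control 2, and their part in the HOX values was not tested. Levels are CPM, reads scaled to a common total, from library sizes scaled by the trimmed mean of M values (TMM). No transcript length was used, so levels are compared between libraries and not between genes. In cultures measured in bulk, fewer expressing cells and less RNA per cell cannot be told apart.

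Of the 36 HOX genes, 27 had enough counts to test, with paralog numbers 2 to 10 and 13. These were 8 genes each of HOXA and HOXB, 7 of HOXC and 4 of HOXD. The HOXD genes beyond HOXD9 were nearly silent. HOXD10, known in mouse for the lumbar spinal cord and hindlimb, had at most 3 counts in any library, as did HOXD13, a gene of digits and genitalia. HOXD11 had at most 2, and HOXB1 and HOXD1 at most 1. For comparison, a count of 3 in a library is worth 0.159 to 0.246 CPM in LOS and 0.148 to 0.212 CPM in controls, so these 5 genes never rose above that floor. Among the other 4 untested genes, HOXA11 reached 23, HOXA13 10 and HOXC11 12 counts in the highest library.

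**Figure D1:**
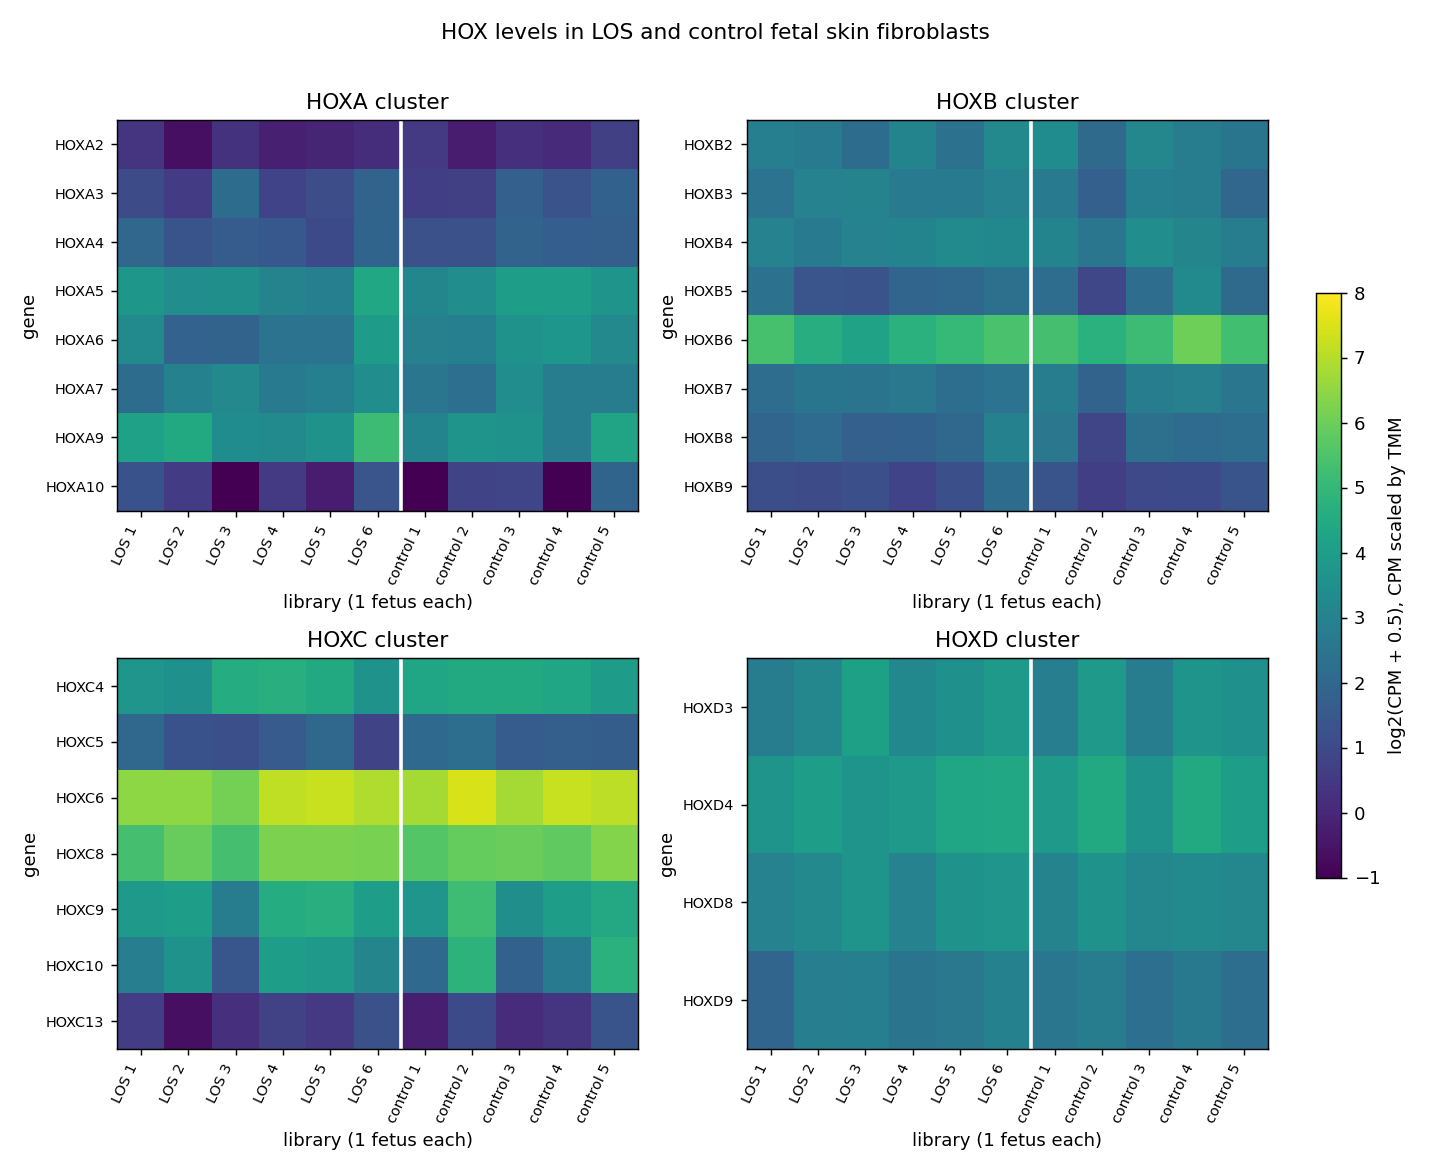
Level of each of the 27 tested HOX genes (rows, by cluster and paralog number) in the 6 LOS libraries and the 5 control libraries (columns), as log2(CPM + 0.5) on one colour scale for all panels. Rows are to be read from left to right, since colours of different genes also depend on transcript length. HOXC10 and HOXA10 change most along their rows, with residual SDs of 1.25 and 1.13.

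Values by library are given first for the gene of each cluster with the highest mean CPM, a choice that depends on gene length and ranks no gene above another. HOXC6, used in the trunk at the level of the forelimb and thorax in mouse, had 88.1, 89.0, 68.5, 141, 150.3 and 122 CPM in LOS 1 to 6, against 109, 174, 111, 151 and 136 CPM in controls 1 to 5. HOXB6 had 41.3, 24.2, 17.9, 26.3, 31.8 and 42.0 CPM in LOS 1 to 6, against 40.6, 26.7, 35.7, 63.8 and 37.9 CPM in controls 1 to 5. Control 4 was the highest and LOS 3 the lowest library for HOXB6, and the groups overlapped for both genes. HOXA9, a trunk and limb gene also known for its role in blood stem cells, had 17.1, 21.8, 9.80, 9.39, 11.9 and 35.5 CPM in LOS, against 7.84, 12.1, 11.9, 6.44 and 18.6 CPM in controls. LOS 6 lay highest and control 4 lowest. HOXD4 had 12.3, 15.9, 12.1, 13.8, 19.3 and 20.4 CPM in LOS, against 14.3, 21.5, 11.7, 21.4 and 15.5 CPM in controls, the narrowest spread of these 4 genes, with 1.84 times between the highest and the lowest library.

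Reads of some neighbouring genes could not be separated with certainty. The estimated counts of HOXA5 and HOXA6 were fractional in all 11 libraries, yet their sum was whole in all 11 (tolerance 0.01). The same held for HOXC5 with HOXC6, and sums were also whole in 11 of 11 libraries for HOXB3 with HOXB4 and HOXB5 with HOXB6, and in 10 of 11 for HOXD3 with HOXD4. Values of these 10 genes therefore depend on how shared reads were split. The other 26 HOX genes had whole counts in every library at that tolerance. HOXA3 also spans HOXA4, so reads of these genes may not be separate.

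Several genes of paralog groups 9 to 13, known from mouse for the posterior trunk and limbs, differed widely between fetuses. HOXC10, a lumbar and hindlimb gene, had 6.73, 11.7, 2.19, 15.8, 13.8 and 7.98 CPM in LOS 1 to 6, against 3.72, 28.0, 2.99, 6.05 and 26.1 CPM in controls 1 to 5. Controls 2 and 5 were far above the other controls and above every LOS library, and the lowest value was in LOS 3. In counts this was 29 reads in LOS 3 and 568 in control 2, a 12.8-fold range in CPM. The neighbouring HOXC9 had 13.6, 15.7, 6.33, 23.3, 24.3 and 15.9 CPM in LOS, against 12.4, 35.9, 10.7, 15.9 and 21.0 CPM in controls. Its highest and lowest libraries, control 2 and LOS 3, were those of HOXC10 too.

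HOXA10, known in mouse for the lumbar spine and the uterus, had no read in 3 libraries. It had 23, 14, 0, 13, 4 and 40 counts in LOS 1 to 6, against 0, 26, 20, 0 and 46 counts in controls 1 to 5. LOS 3, control 1 and control 4 thus had no read, while control 5 and LOS 6 had the most. HOXA11, HOXA13 and HOXC11, with few reads, were highest in controls 2 and 5. HOXA11 had at most 6 counts in a LOS library, against 16 in control 2, 23 in control 5 and at most 3 in the other controls. HOXA13, a gene of the most distal limb, had 10 counts in control 2, 5 in control 5 and at most 3 in the other 9 libraries. HOXC11 had 10 and 12 counts in these controls and at most 6 elsewhere. In CPM, HOXC11 stood at 0.494 in control 2 and 0.847 in control 5. LOS 4 came close to control 2, at 0.440 CPM. HOXC13, which human and mouse hair and nails need, had 1.07, 0.145, 0.678, 1.17, 0.907 and 1.85 CPM in LOS, against 0.338, 1.53, 0.611, 0.787 and 2.05 CPM in controls, with control 5 highest, LOS 6 next and LOS 2 lowest.

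**Figure D2:**
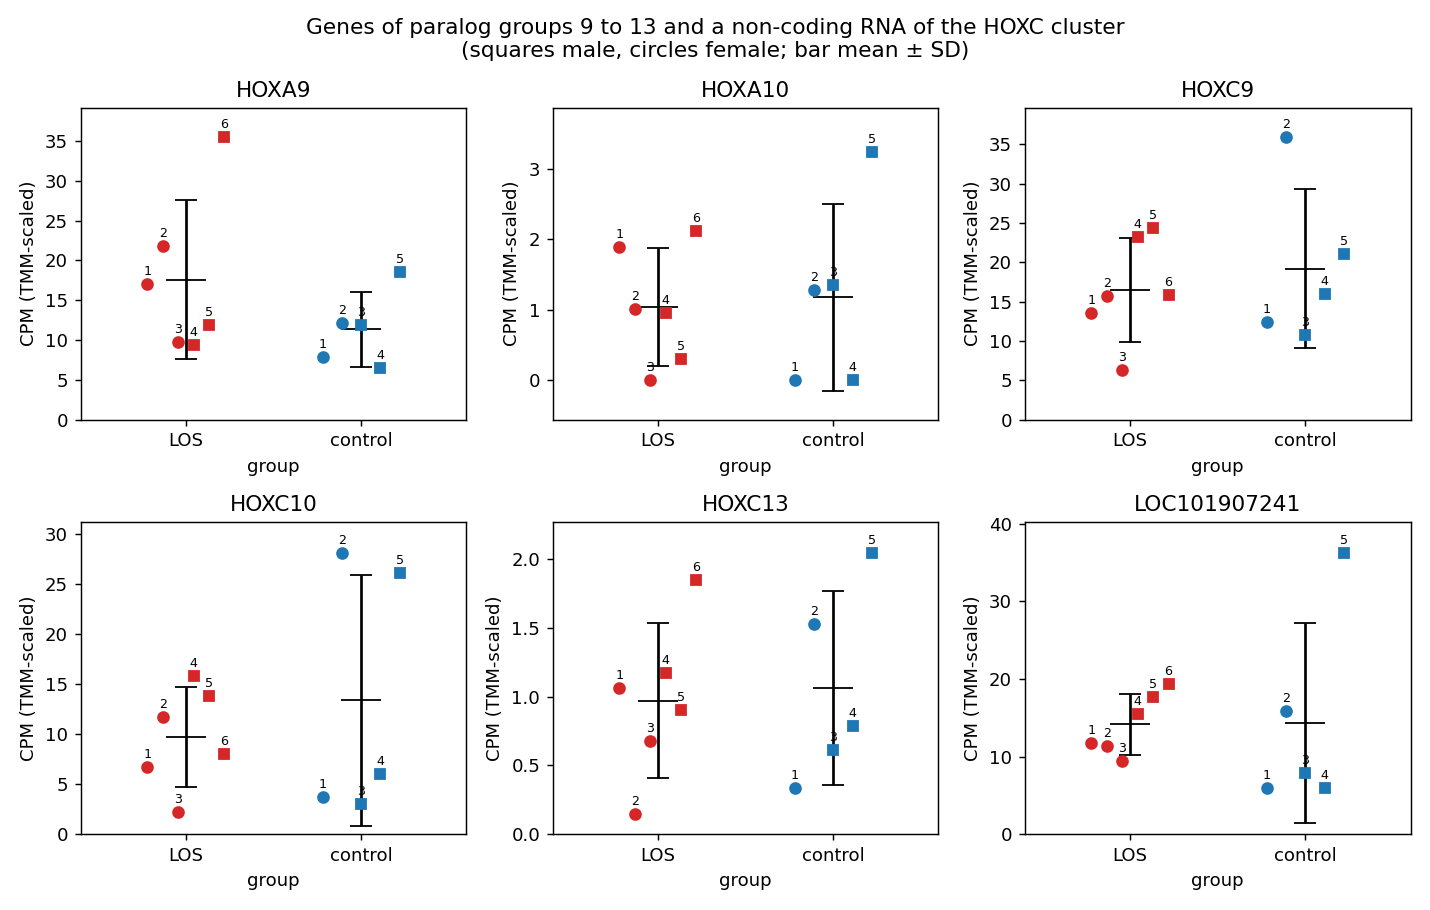
CPM of 5 HOX genes of paralog groups 9 to 13 and of LOC101907241, a non-coding RNA gene in the HOXC cluster, in each LOS library (red, left) and each control library (blue, right). Squares are males, circles females, digits replicate numbers, and bars the mean ± SD (n = 6 LOS and n = 5 controls). Controls 2 and 5 lie above all other libraries for HOXC10, at 28.0 and 26.1 CPM.

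The HOX make-up of each library, taken from the same counts, shows the same fetuses apart in a measure that does not depend on library scaling. It is a description and no separate support. Paralog groups 9 to 13 took 14.3%, 17.7%, 10.1%, 14%, 13.4% and 16.2% of HOX counts in LOS 1 to 6, against 9.20%, 19.1%, 8.99%, 8.12% and 17.8% in controls 1 to 5. Controls 1, 3 and 4 lay below every LOS library, and controls 2 and 5 above every LOS library. HOXC10 alone made up 1.53% to 6.18% of HOXC counts in LOS, against 8.66% and 9.17% in controls 2 and 5 and 1.42% to 2.41% in the other controls. Groups 1 to 4 took 16.8% to 28.2% of HOX counts in LOS and 14.3% to 19.8% in controls, with LOS 3 highest. Groups 5 to 8 made up most HOX counts in every library, from 61.7% to 69.2% in LOS and from 65.3% to 74.5% in controls. No transcript length was used, so these shares compare libraries and do not rank the paralog groups.

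After removal of sex and group, the residual SD on the log2(CPM + 0.5) scale was 1.25 for HOXC10, 1.13 for HOXA10, 0.70 for HOXA9 and 0.69 for HOXC9. Of all 16946 rows tested, 98.8% had a lower SD than HOXC10. The median over the 27 tested HOX genes was 0.44, against 0.28 over all rows tested. HOXD9 (0.35) and HOXB9 (0.41), of groups 9 to 13 as well, varied less than HOXA6 (0.62) and HOXB5 (0.58). The median was 0.69 for the 7 tested genes of groups 9 to 13, 0.41 for the 9 of groups 1 to 4 and 0.41 for the 11 of groups 5 to 8. HOXC8 (0.25) and HOXB4 (0.22) varied least, both below the median of all rows. Counting error adds to the SD of genes with few counts, such as HOXA10, and its part was not tested.

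Genes of a cluster varied together more than genes of different clusters. Over the 11 libraries, log2 levels of 2 tested genes had a median correlation of 0.46 over the 83 pairs in the same cluster and of 0.00061 over the 268 pairs in different clusters. The median was 0.62 within HOXD, 0.52 within HOXB, 0.44 within HOXC and 0.35 within HOXA. Pairs of the same paralog number in different clusters had a median of 0.21 (27 pairs). These correlations are descriptions: pairs share genes and libraries, and 5 neighbouring pairs share reads.

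Other transcripts inside the clusters varied too. LOC101907241, an annotated long non-coding RNA gene on the plus strand between HOXC11 and HOXC13 (chromosome 5, 26066400 to 26070523), had 11.7, 11.4, 9.42, 15.5, 17.7 and 19.3 CPM in LOS 1 to 6, against 6.01, 15.9, 7.88, 5.90 and 36.2 CPM in controls 1 to 5. Control 5 lay highest and controls 1 and 4 lowest, and the log2 fold change of LOS against control was 0.03 ± 0.43 (SE). LOC100848766, a long non-coding RNA gene that overlaps HOXB3 on the opposite strand, had 2.63, 3.19, 4.82, 3.23, 4.23 and 4.18 CPM in LOS, against 2.16, 2.27, 2.92, 2.56 and 3.11 CPM in controls. Its log2 fold change was 0.54 ± 0.19 (SE; edgeR quasi-likelihood, unadjusted p = 0.0153, Benjamini-Hochberg adjusted p = 0.932), and the groups overlapped. The sources used here do not say whether counting used strand, so reads of this gene and of HOXB3 may not be separate. The loci MSTRG.4268 in HOXC and MSTRG.1224 in HOXD, assembled by the authors, averaged 16.9 and 12.5 counts per library, with log2 fold changes of -0.16 ± 0.37 and -0.26 ± 0.53.

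The question of the series is how LOS and control fibroblasts differ, and no HOX gene passed the test of that difference. Among 27 tested HOX genes, 12 lay above 0 and 15 below 0 for LOS minus control. None, 0 of 27, was called by edgeR's quasi-likelihood test at a Benjamini-Hochberg adjusted p under 0.05 across all rows (0% of 16946 rows called). At an unadjusted p under 0.05 there were 0 HOX genes, against 4.44% of all rows. DESeq2 and limma voom also called 0 HOX genes. In 0 of the 27 genes were the LOS and control libraries fully separate, against 0.23% of all rows. The median log2 fold change was -0.06 over the HOX genes and -0.00070 over all rows. By cluster it was 0.03 in HOXA (4 of 8 higher), 0.01 in HOXB (4 of 8), -0.24 in HOXC (1 of 7) and 0.12 in HOXD (3 of 4).

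Values follow for the 6 HOX genes of smallest p, all at an adjusted p of 0.932 (edgeR, Benjamini-Hochberg). For HOXC6 the LOS libraries averaged 109.8 ± 32.8 CPM (SD, n = 6) and the controls 136 ± 27.5 CPM (SD, n = 5), a log2 fold change of -0.32 ± 0.19 (SE). The HOXA9 mean was 17.6 ± 10.0 CPM over LOS and 11.4 ± 4.73 CPM over controls (0.66 ± 0.39). That of HOXB6 was 30.6 ± 9.67 CPM over LOS and 40.9 ± 13.8 CPM over controls (-0.38 ± 0.24). Single libraries moved these values: HOXC6 stood at -0.10 without control 2, HOXA9 at 0.25 without LOS 6 and HOXB6 at -0.20 without control 4. HOXB3, a gene of the hindbrain and neck in mouse, had 4.83, 7.40, 7.57, 5.87, 6.20 and 7.52 CPM in LOS, against 6.08, 2.91, 6.81, 6.39 and 3.46 CPM in controls (0.38 ± 0.25). HOXC5 had 3.53, 1.88, 1.78, 2.53, 3.60 and 1.30 CPM in LOS, against 3.72, 4.22, 2.55, 2.79 and 2.67 CPM in controls (-0.40 ± 0.28). HOXA6 had 9.12, 3.03, 3.16, 4.93, 4.93 and 15.2 CPM in LOS, against 6.99, 6.86, 11.5, 12.9 and 8.89 CPM in controls (-0.42 ± 0.36), so that LOS held both its lowest and its highest library. HOXB3 stood at 0.19 without control 2, HOXC5 at -0.62 without LOS 5, and HOXA6 at -0.68 without LOS 1 and -0.81 without LOS 6. The groups overlapped in each of the 6 genes.

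For HOXC10 the fold change of LOS against control depended on single libraries. It was -0.49 ± 0.66 (SE) over all libraries, with means of 9.69 ± 5.01 CPM in LOS (SD, n = 6) and 13.4 ± 12.6 CPM in controls (SD, n = 5), with values of 0.33 without control 2, -0.01 without control 5, -0.26 without LOS 3 and -0.79 without control 3. It was also near 0 with limma voom (-0.03) and with the replicate block (-0.03). In that block LOS 3, LOS 6 and control 3 add nothing to the group effect. HOXA10 stood at -0.02 ± 1.08 and changed sign with other settings. HOXD4 stood at -0.11 ± 0.20, and 0.07 without control 2.

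**Figure D3:**
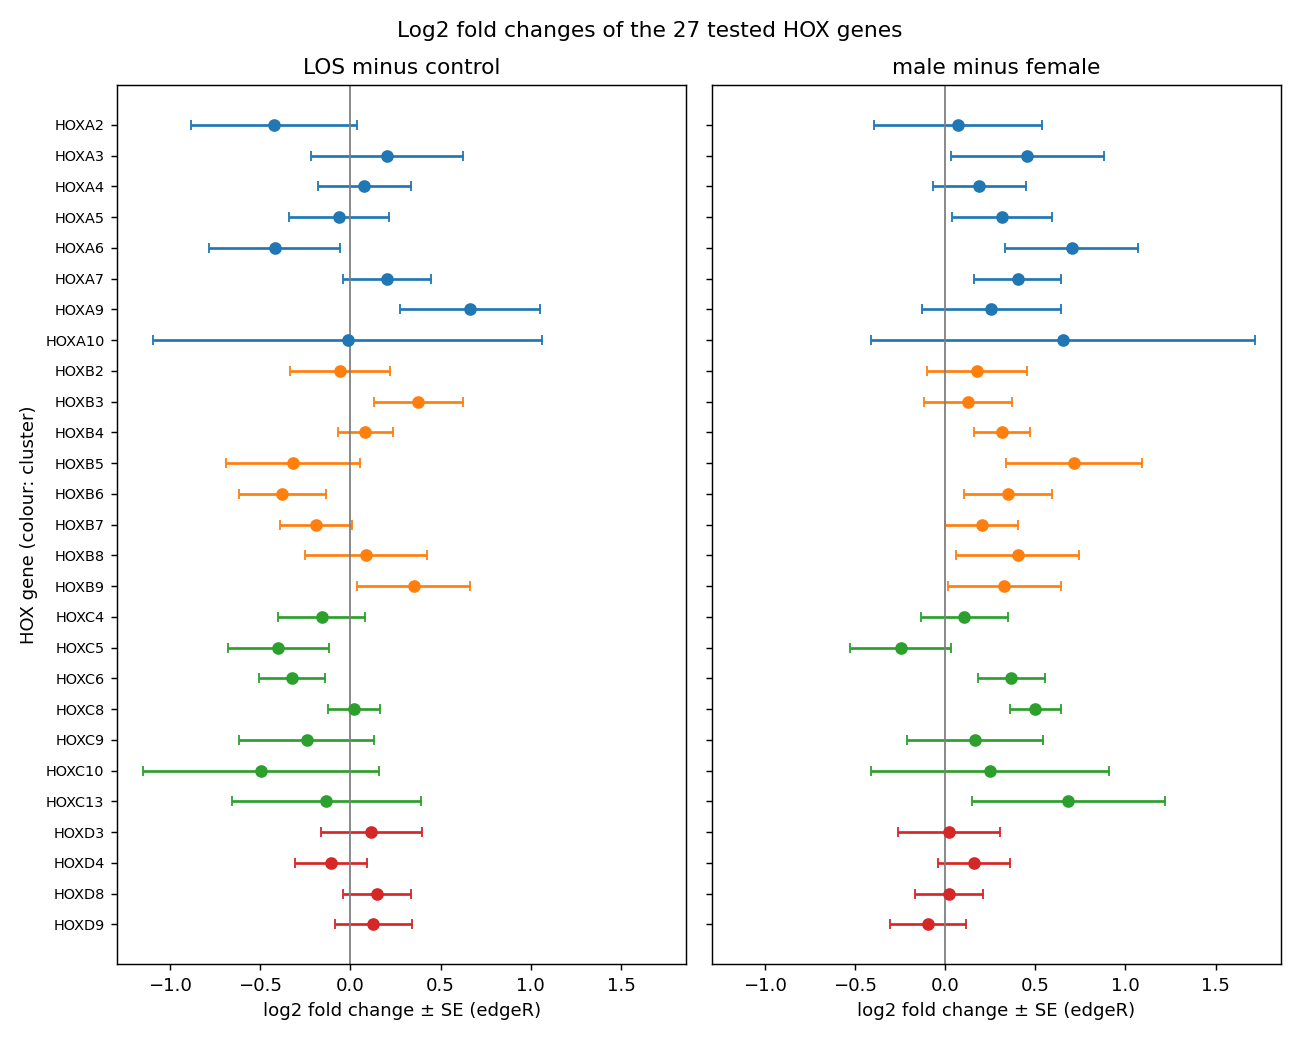
Log2 fold change ± SE (edgeR) of the 27 tested HOX genes for LOS minus control (left) and male minus female (right), coloured by cluster. On the left the points lie on both sides of 0, from -0.49 to 0.66. On the right 25 of 27 lie above 0, and 0 genes passed the adjusted threshold in either panel.

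Levels in males were above those in females for most HOX genes, but no single gene passed. With LOS and control fetuses together, 25 of 27 tested genes had a log2 fold change above 0 for male minus female, with a median of 0.26, against 49.9% above 0 and a median of -0.00019 over all rows. The HOX genes are not independent of each other, since they vary together within clusters. By edgeR's quasi-likelihood test at a Benjamini-Hochberg adjusted p under 0.05, 0 HOX genes passed, against 0.0472% of all rows, and at an unadjusted p under 0.05 there was 1 HOX gene, HOXC8, against 3.3% of all rows, 1.51% being higher in males. DESeq2 also called 0. All 8 tested HOXA and all 8 HOXB genes were on the male side, and HOXC5 (-0.24) and HOXD9 (-0.10) on the female side. The median stayed between 0.19 and 0.32 when each library was left out in turn.

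HOXC8, a gene of the thoracic trunk in mouse, had 74.7, 75.2 and 73.1 CPM in LOS males and 60.4, 55.6 and 80.2 CPM in control males, against 40.3, 60.0 and 40.0 CPM in LOS females and 48.3 and 58.1 CPM in control females. Among LOS fetuses every male was above every female, and among controls the sexes overlapped. The log2 fold change was 0.50 ± 0.14 (SE; edgeR unadjusted p = 0.00497, adjusted p = 0.999). The next genes by p were HOXB4 (0.32 ± 0.15), HOXC6 (0.37 ± 0.19) and HOXA6 (0.70 ± 0.37), each with an adjusted p of 0.999. HOXB4, a gene used to expand blood stem cells, had 7.93, 9.22 and 8.71 CPM in LOS males and 10.1, 7.97 and 6.57 CPM in control males, against 7.40, 6.02 and 7.51 CPM in LOS females and 7.84 and 5.23 CPM in control females. In 0 of the 27 genes were the sexes fully separate, against 0.325% of all rows.

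The effect of LOS was also compared between the sexes. The interaction model tested 28 HOX genes, HOXA11 included, and called 0 (edgeR quasi-likelihood, adjusted p under 0.05; 0% of 17583 rows called). Of the 28, 16 lay above 0, against 48.5% of all rows. By cluster, 2 of 9 lay above 0 in HOXA, 3 of 8 in HOXB, 7 of 7 in HOXC and 4 of 4 in HOXD. Genes of a cluster vary together, so these counts are descriptions. At an unadjusted p under 0.05 there were 2 HOX genes, against 4.95% of all rows. They were HOXC6, where the LOS effect in males minus that in females was 0.85 ± 0.29 (SE; unadjusted p = 0.0144, adjusted p = 0.921), and HOXC9 at 1.44 ± 0.64 (unadjusted p = 0.0479, adjusted p = 0.921). LOS males had 141, 150.3 and 122 CPM of HOXC6 and LOS females 88.1, 89.0 and 68.5 CPM, against 111, 151 and 136 CPM in control males and 109 and 174 CPM in control females. Without control 2, a female, 0 HOX genes were under that p, and the values were 0.47 for HOXC6 and 0.48 for HOXC9.

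Reads that cover a site where the parental chromosomes differ tell how far each allele was used. Of the HOX genes, 10 had such reads, 6 of HOXC and 4 of HOXD, and none of HOXA or HOXB was in the allelic table. Of 79210 gene and library combinations with allelic reads in that table, 6 had reads of a single allele, so a gene without a site seen on both alleles has no value. LOS 3 had no allelic reads at HOXD3, HOXD4, HOXD8 or HOXD9, although HOXD4 had 12.1 CPM there. With the read minimum used here (a mean of 20 per library), 5 genes could be tested, namely HOXC4, HOXC6, HOXC8, HOXD4 and HOXD8. By total level HOXC4 had 12.5, 10.9, 23.4, 24.6, 21.7 and 11.6 CPM in LOS, against 19.7, 21.5, 21.5, 19.5 and 15.4 CPM in controls. HOXD8 had 7.39, 8.93, 12.1, 7.41, 11.8 and 12.5 CPM in LOS, against 7.63, 11.6, 8.42, 9.20 and 8.40 CPM in controls, and the groups overlapped for both genes.

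At HOXC8 more allelic reads were paternal than maternal. The gene lies at 26019840 to 26023432 of chromosome 5, minus strand. Its 330 allelic reads were 3.21% of its expected counts, against 18.2% (HOXC6) to 77.1% (HOXD4) at the other tested HOX genes. Maternal reads were 7 of 24, 11 of 35, 5 of 20, 7 of 26, 7 of 36 and 8 of 32 in LOS 1 to 6, and 3 of 25, 9 of 37, 19 of 39, 8 of 29 and 9 of 27 in controls 1 to 5. The maternal share was thus below 50% in all 11 libraries, and the exact 95% Clopper-Pearson interval lay wholly below 50% in 8. The highest was control 3, at 48.7% (32.4% to 65.2%), and the lowest control 1, at 12% (2.55% to 31.2%). These intervals measure counting error alone and treat reads as independent, so they are too narrow where several reads come from 1 molecule. The maternal share averaged 26.2% ± 4.13 in LOS (SD, n = 6) and 29.2% ± 13.4 in controls (SD, n = 5).

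Over all libraries the log2 ratio of maternal to paternal reads at HOXC8 was -1.35 ± 0.19 (SE; edgeR quasi-likelihood, Benjamini-Hochberg adjusted p = 1.21e-05). Of 5700 genes tested, 20.5% were called, 10.3% with a lower maternal allele, and 7 genes had a lower log2 ratio than HOXC8. The call held without any single library (-1.54 without control 3, adjusted p at most 5.71e-05). All fetuses are Brahman and Angus crosses, and which breed was the dam is not clear from the labels. The paternal allele of HOXC8 is therefore not assigned to a breed here, and parent of origin and breed cannot be told apart. The part of read mapping to a reference of 1 breed was not tested.

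The maternal share at HOXC8 was lower than at the other tested HOXC genes, HOXC6 and HOXC4. At the neighbouring HOXC6 the maternal share was 44.0%, 47.8%, 61.2%, 51.3%, 55.1% and 52.0% in LOS 1 to 6, against 49.8%, 52.5%, 51.6%, 53.2% and 56.1% in controls 1 to 5, from 170 to 609 reads per library. Shares lay on both sides of 50%, and the log2 ratio was 0.13 ± 0.07 (SE; edgeR adjusted p = 0.216). HOXC4, a gene of the neck and upper trunk in mouse, had 55.8%, 44.4%, 27%, 38.3%, 39.3% and 54.3% in LOS, against 37.8%, 43.5%, 36.4%, 58.4% and 51.2% in controls, from 9 to 161 reads (-0.29 ± 0.16, adjusted p = 0.214). The share at HOXC8 was lower than at HOXC6 in 11 of 11 libraries, by 24.7 ± 10.4 percentage points (SD; exact paired permutation test, two-sided, p = 0.000977, the smallest 11 pairs allow, adjusted p = 0.00195 over 2 comparisons). It was lower than at HOXC4 in 10 of 11, by 16.7 ± 12.9 points (exact p = 0.00391, adjusted p = 0.00391). These 2 comparisons were chosen after the values were seen, with HOXC8 already called. Their p-values do not account for that choice and are no separate support.

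**Figure D4:**
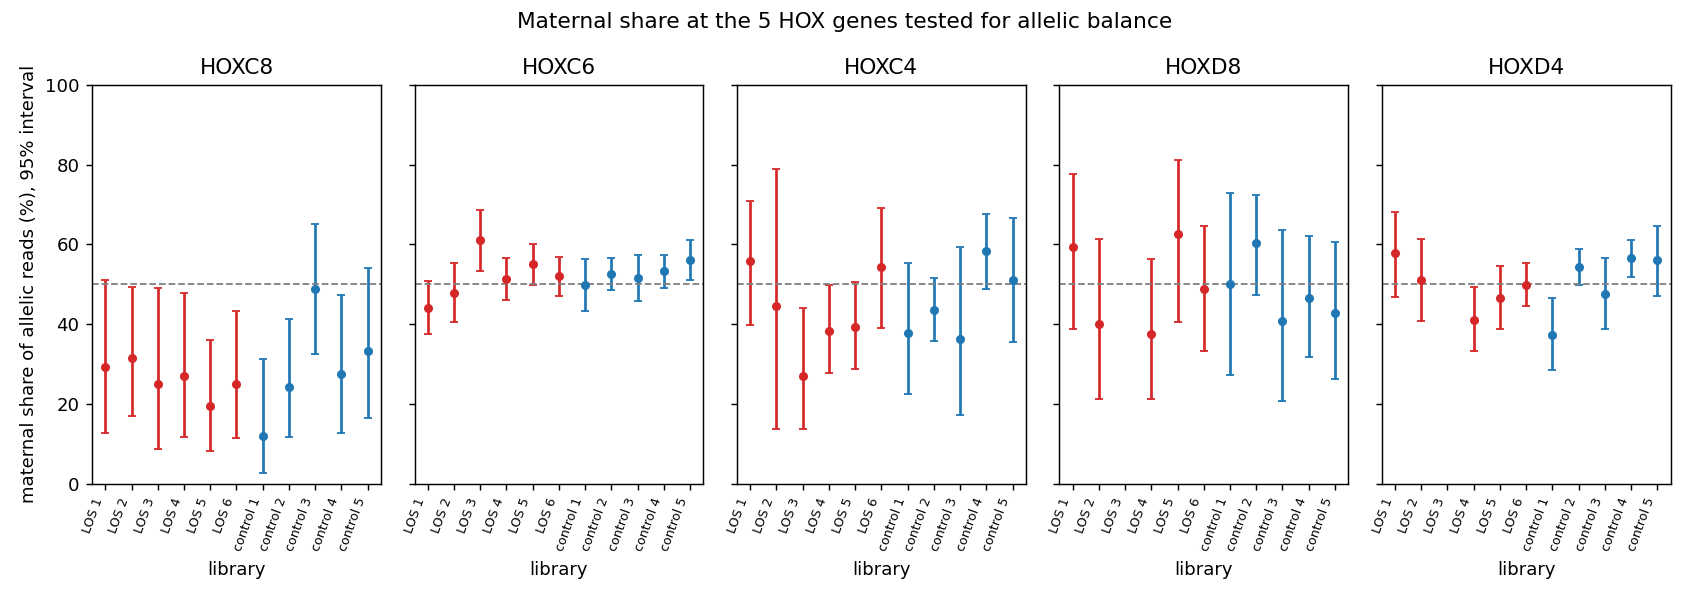
Maternal share of allelic reads (%, vertical axis) at the 5 HOX genes tested, in each LOS library (red) and control library (blue), with exact 95% intervals; the dashed line marks 50%. HOXC8 lies below the line in all 11 libraries, from 12% to 48.7%, whereas the other genes lie on both sides, and LOS 3 has no point at HOXD8 and HOXD4.

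In the HOXD cluster neither tested gene passed the test of the allele. HOXD4 had a maternal share of 57.8%, 51.0%, 41.1%, 46.6% and 49.9% in LOS 1, 2, 4, 5 and 6, against 37.3%, 54.4%, 47.7%, 56.5% and 56.1% in controls 1 to 5, from 90 to 489 reads (log2 ratio 0.01 ± 0.11, edgeR adjusted p = 0.961). HOXD8 had 59.3%, 40.0%, 37.5%, 62.5% and 48.8% in those LOS libraries, against 50%, 60.3%, 40.9%, 46.7% and 42.9% in controls, from 20 to 63 reads (-0.04 ± 0.18, adjusted p = 0.966). For the difference of the share between LOS and control, 0 of the 5 HOX genes were called (0% of 5700 genes called), and 0 were at an unadjusted p under 0.05, against 4.32% of all genes. At HOXC8 the log2 ratio in LOS minus that in controls was -0.29 ± 0.40 (SE; edgeR adjusted p = 0.999), and 0.11 without control 3. The values were -0.27 ± 0.32 for HOXC4, -0.05 ± 0.15 for HOXC6, -0.16 ± 0.22 for HOXD4 and -0.01 ± 0.36 for HOXD8, each with an adjusted p of 0.999.

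Genes that work with HOX proteins or control them were looked at beside the clusters. Over all rows, 0% were called for LOS minus control, 49.8% lay above 0 and 4.44% had an unadjusted p under 0.05. Of 8 tested genes for cofactors that bind DNA with HOX proteins, 3 were higher and 5 lower in LOS, with 0 called, 0 at an unadjusted p under 0.05 and a median log2 fold change of -0.07. MEIS1 stood at -0.17 ± 0.15, PKNOX2 at -0.63 ± 0.60 and PBX3 at -0.16 ± 0.18. Of 29 tested genes for chromatin and upstream regulators, 19 were higher and 10 lower (0 called, 2 at an unadjusted p under 0.05, median 0.05). RARB, a retinoic acid receptor gene, stood at 1.08 ± 0.40 (edgeR unadjusted p = 0.0213). CTCF, not among the 2 under 0.05, stood at -0.18 ± 0.09 (edgeR unadjusted p = 0.0681). Of 23 tested genes for other factors of body region, 14 were higher and 9 lower (0 called, 3 at an unadjusted p under 0.05, median 0.10), with TBX2 at -1.32 ± 0.52 and MSX2 at 0.80 ± 0.34. The adjusted p of the 7 genes named here ran from 0.932 to 0.939 (edgeR, Benjamini-Hochberg).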

How the data were processed

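Values were deposited by the authors in the form of expected counts (estimated reads per gene, not normalised, 71.2% of values whole) and as whole counts of maternal and paternal reads, per the file headers. Per the submitters' processing notes build ARS-UCD1.2 was used with edgeR 3.36.0, Salmon 0.11.1, StringTie 2.1.4, HISAT2 2.1.0, Cufflinks 2.2.1, GATK, SAMtools 1.8, Picard 2.22.4 and FastQC 0.11.7. The role of each is not stated there. No sequencing batch is given in the labels. Libraries were 150 bp paired ends, 33 M pairs planned. The other deposited table was not used.

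Expected counts were rounded and fitted over all rows in R 4.3.3 with edgeR 4.0.16: TMM factors, filterByExpr, sex and group as terms, and sex by group for the interaction. SE is the log2 fold change divided by the root of F. Allelic counts were fitted with a term per library, the allele and allele by group, for autosomal genes and unplaced scaffolds with at least 20 reads on average and, per group, at least 3 libraries of 10 reads. Both fits were tested on simulated data. Alternatives used DESeq2 1.42.0, limma 3.58.1, other scaling, filters and read minimums, leaving out single libraries and a replicate block. Permutation tests used scipy 1.17.1. Named genes were all HOX genes, with values in full for the leading gene of each cluster, the 6 and 4 smallest p for LOS and sex, genes with a tested allelic share and up to 3 genes of each other list. HOXC10, HOXA10 and the other genes of groups 9 to 13 were chosen after their values were seen. The members and lists were chosen with earlier results of these data known. Sequences are not used here, and some genes that the rule would name are not reported here.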

Additional observations from a re-analysis of the deposited data

Results flagged for a closer look

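LOS 6 stood far from the other LOS libraries at 2 neighbouring genes of HOXB. HOXB8 had 7.30 CPM in LOS 6, against at most 3.92 CPM in the other LOS libraries. HOXB9 had 4.07 CPM in LOS 6, against at most 1.81 CPM in the other LOS libraries. Both were found by Dixon's ratio among 64 groups of values looked at (27 genes by level and 5 by maternal share, in LOS and in controls), where chance gives about 1 in 20.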

How the results depend on the processing

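The counts of HOX genes called stayed at 0 for LOS against control, for the sexes, for the interaction and for the allelic difference between LOS and control under every alternative run. The call of HOXC8 for the maternal share held in all but 1: with a mean of 50 allelic reads the count of HOX genes called was 0, because HOXC8, with 30.0 reads on average, is then not tested. For LOS against control, HOXA10 turned to 1.19 with limma voom and 0.82 with the replicate block, and ran from -0.40 to 0.67 with single libraries left out. HOXC10 ran from -0.79 to 0.33 and HOXD4 from -0.23 to 0.0661. The log2 allelic ratios ran from -0.0457 to 0.0803 for HOXD4 and -0.15 to 0.0352 for HOXD8. Their differences between LOS and control ran from -0.53 to 0.11 for HOXC8, -0.17 to 0.24 for HOXD8 and -0.14 to 0.0304 for HOXC6. By mean maternal share, HOXD8 was 1.47 percentage points higher in LOS than in controls (exact permutation test, p = 0.833). The cause of these ranges was not tested. Over all rows, DESeq2 called 5 for LOS, 22 for sex and 6 for the interaction, against 0, 8 and 0 by edgeR. For sex, 3 to 7 rows were called with 1 library left out and 3 among annotated genes only. The number of HOX genes at an unadjusted p under 0.05 ran from 0 to 1 for LOS, 1 to 4 for sex and 0 to 5 for the interaction over all alternatives. Summing neighbours that share reads, an alternative chosen after seeing the data, called 0 of the 5 sums. Deviations of same-numbered libraries from their group means had correlations of -0.20 to 0.29, and 2 of 5 LOS libraries were closest to their own number. Sex was not removed, and so few libraries cannot exclude a pairing. The main fits did not use the numbers as a pairing. The replicate block called 0 HOX genes for LOS against control. Its LOS values, that of HOXA10 included, rest on the libraries numbered 1, 2, 4 and 5, where both groups have the same sex. LOS 3 and control 3 differ in sex and LOS 6 has no control of its number, so these libraries add nothing to them. The sex term of the block rests on LOS 3 and control 3 alone and decides nothing about sex. Depth limits the 9 untested HOX genes and the allelic shares, which rest on 20 to 39 reads per library at HOXC8.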

Other observations

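Maternal shares of single libraries at HOX genes with too few reads to test spanned a wide range. At HOXC10, 12 of 14 allelic reads were maternal in control 5 and 17 of 30 in control 2, while LOS 5 had 1 of 9 and LOS 6 had 14 of 26. At HOXD9, 14 of 19 reads were maternal in control 1, and 1 of 9 in LOS 4.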
